A study of Homo sapiens with 12 samples.

Results

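RNA polymerase III contains subunits of its own besides those it shares with RNA polymerases I and II. The genes described here are 9 that encode subunits of its own: POLR3A, POLR3B, POLR3C, POLR3D, POLR3E, POLR3F, POLR3G, POLR3GL and POLR3K. They were taken by gene symbol, not by a threshold on values, from a deposited table of 56227 entries. The list was chosen with earlier results of these data known. All 9 were present, and all 9 were among the 14722 genes that passed the filter on low values, which asked for at least 1 TPM (a relative transcript abundance) in at least 3 of the 12 libraries. CRCP, which encodes a stalk subunit of the enzyme, was not among the 9 and is given beside them.

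RNA polymerase III transcribes short noncoding RNAs, among them the transfer RNAs, the smallest ribosomal RNA and a spliceosomal RNA. It also has a role in the sensing of foreign DNA: in the cytosol it copies AT-rich DNA such as poly(dA:dT) into RNA with a terminal triphosphate, which RIG-I, the product of DDX58, recognises. POLR3A and POLR3B form the catalytic core. POLR3C, POLR3F and either POLR3G or POLR3GL form a subcomplex needed for initiation at promoters, whereas POLR3D and POLR3E form another and POLR3K takes part in RNA cleavage and termination.

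RNA-seq was done on the human fibrosarcoma line HT1080, an established line whose NRAS carries the mutation Q61K, in a study of the interferon-alpha response when that NRAS is knocked down. Cells received siQ61K, the siRNA against mutant NRAS, or siNC, the control siRNA, and were given poly(dA:dT), a synthetic DNA duplex, or DMSO. The 4 groups were siQ61K with poly(dA:dT), siQ61K with DMSO, siNC with poly(dA:dT) and siNC with DMSO, with 3 libraries each, so that every group carried an siRNA. No other siRNA against NRAS was used, so what siQ61K does besides lowering NRAS cannot be told apart from what the loss of NRAS does. TPM does not separate the mutant from the normal allele. How poly(dA:dT) and the siRNAs were delivered, and at which doses and times, is not stated in the labels. Table columns were matched to the samples by reading their short names, which is an inference. The labels do not tell whether replicate libraries stem from separate cultures, and the p-values then measure a spread that may be only technical.

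TPM is a relative abundance scaled for transcript length, so levels may be compared between genes, but it keeps no depth, and the depth of each library is unknown. Replicate libraries correlated at 0.966 to 0.984 across genes. NRAS stood at 15.2 to 23.5 TPM in the 6 siQ61K libraries, against 41.4 to 60.6 TPM in the 6 siNC libraries. The mesenchymal markers VIM (4730 to 7740 TPM), SPARC, FN1 and CDH2 were present in all 12 libraries, while THY1 did not exceed 0.126 TPM. Of the markers of other cell types measured, CDH1, EPCAM, ESRP1, PTPRC, CD3E, CDH5 and VWF were at or near 0 (at most 0.323 TPM), KRT19 did not exceed 0.768 TPM, and only CD68, which is not limited to leukocytes, was high, at 97.3 to 219 TPM; PECAM1 was not analysed here. In bulk samples, fewer cells of a type and less RNA per cell cannot be told apart.

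The stretches of 250 bases upstream of the start sites are shown for POLR3A, POLR3E, POLR3F and POLR3GL. Their GC content is that of the promoter and not that of the transcript, which is used for the GC trend below. The sequences are from RefSeq on GRCh38.p14, a later build than the hg19 named in the submitters' processing notes. Of the 9 members 7 had an entry, with 9 start sites in all, and POLR3D and POLR3G had none. Each is written 5′ to 3′ on the strand of the gene. The stretches are POLR3A at chr10:78029516-78029765 (minus strand), POLR3E at chr16:22297159-22297408 (plus strand), POLR3F at chr20:18467140-18467389 (plus strand) and POLR3GL at chr1:145964440-145964689 (plus strand). Capitals mark matches to any of 3 motifs searched on both strands: the E-box CACGTG, the ETS motif CCGGAAGT and the B box of tRNA gene promoters.
POLR3A: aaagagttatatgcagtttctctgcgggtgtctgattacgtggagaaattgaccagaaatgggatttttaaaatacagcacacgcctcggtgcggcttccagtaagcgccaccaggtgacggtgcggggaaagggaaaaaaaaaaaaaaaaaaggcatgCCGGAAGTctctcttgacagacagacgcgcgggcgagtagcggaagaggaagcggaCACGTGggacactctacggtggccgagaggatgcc
POLR3E: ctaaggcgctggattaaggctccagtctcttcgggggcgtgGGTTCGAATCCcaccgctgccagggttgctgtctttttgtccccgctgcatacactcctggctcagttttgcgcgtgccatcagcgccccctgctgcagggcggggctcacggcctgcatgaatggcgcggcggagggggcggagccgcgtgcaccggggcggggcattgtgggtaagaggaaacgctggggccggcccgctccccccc
POLR3F: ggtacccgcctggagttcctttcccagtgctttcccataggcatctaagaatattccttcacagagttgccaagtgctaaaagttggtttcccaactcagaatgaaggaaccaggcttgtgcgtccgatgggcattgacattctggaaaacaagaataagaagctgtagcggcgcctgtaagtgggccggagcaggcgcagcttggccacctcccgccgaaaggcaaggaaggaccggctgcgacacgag
POLR3GL: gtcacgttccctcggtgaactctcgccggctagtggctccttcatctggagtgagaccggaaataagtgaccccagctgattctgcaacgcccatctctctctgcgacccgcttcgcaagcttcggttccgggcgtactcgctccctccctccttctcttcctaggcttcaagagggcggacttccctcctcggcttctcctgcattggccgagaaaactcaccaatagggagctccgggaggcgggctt

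The POLR3A stretch, with 52% GC, held the ETS motif at 91 to 84 bases and the E-box at 35 to 30 bases before the start. Among 35116 RefSeq promoters of the same length, 6.34% held the E-box and 3.42% the ETS motif. The POLR3E stretch had 68.4% GC and held the B box at 209 to 199 bases before the start, which 26 of the 35116 promoters (0.074%) held. No match was found in the stretches of POLR3F (54.4% GC) and POLR3GL (60.0% GC). Besides these, 1 of the 2 stretches of POLR3C held the E-box, at 196 to 191 bases before the start. The matches are descriptions of the letters and not evidence of binding.

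The members were expressed at moderate levels in HT1080 cells. In siNC cells with DMSO the order from high to low was POLR3D at 33.5 ± 2.84 TPM (SD, n = 3), POLR3G at 31.0 ± 3.74 TPM, POLR3E at 29.5 ± 6.03 TPM, POLR3C at 24.2 ± 1.60 TPM, POLR3K at 22.7 ± 2.47 TPM, POLR3GL at 18 ± 3.70 TPM, POLR3A at 11.2 ± 0.827 TPM, POLR3F at 10.1 ± 1.66 TPM and POLR3B at 6.65 ± 0.427 TPM. Values of neighbours in that order overlapped, except between POLR3GL and POLR3A and between POLR3F and POLR3B. By their mean over the 12 libraries the members lay between the 36.8th percentile of the tested genes (POLR3B) and the 70.5th (POLR3D). The highest library stood above the lowest by between 1.5-fold (POLR3K) and 2.17-fold (POLR3D). The mRNAs of the catalytic core were thus low in the order, with POLR3A at less than any member but POLR3F and POLR3B.

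**Figure D1:**
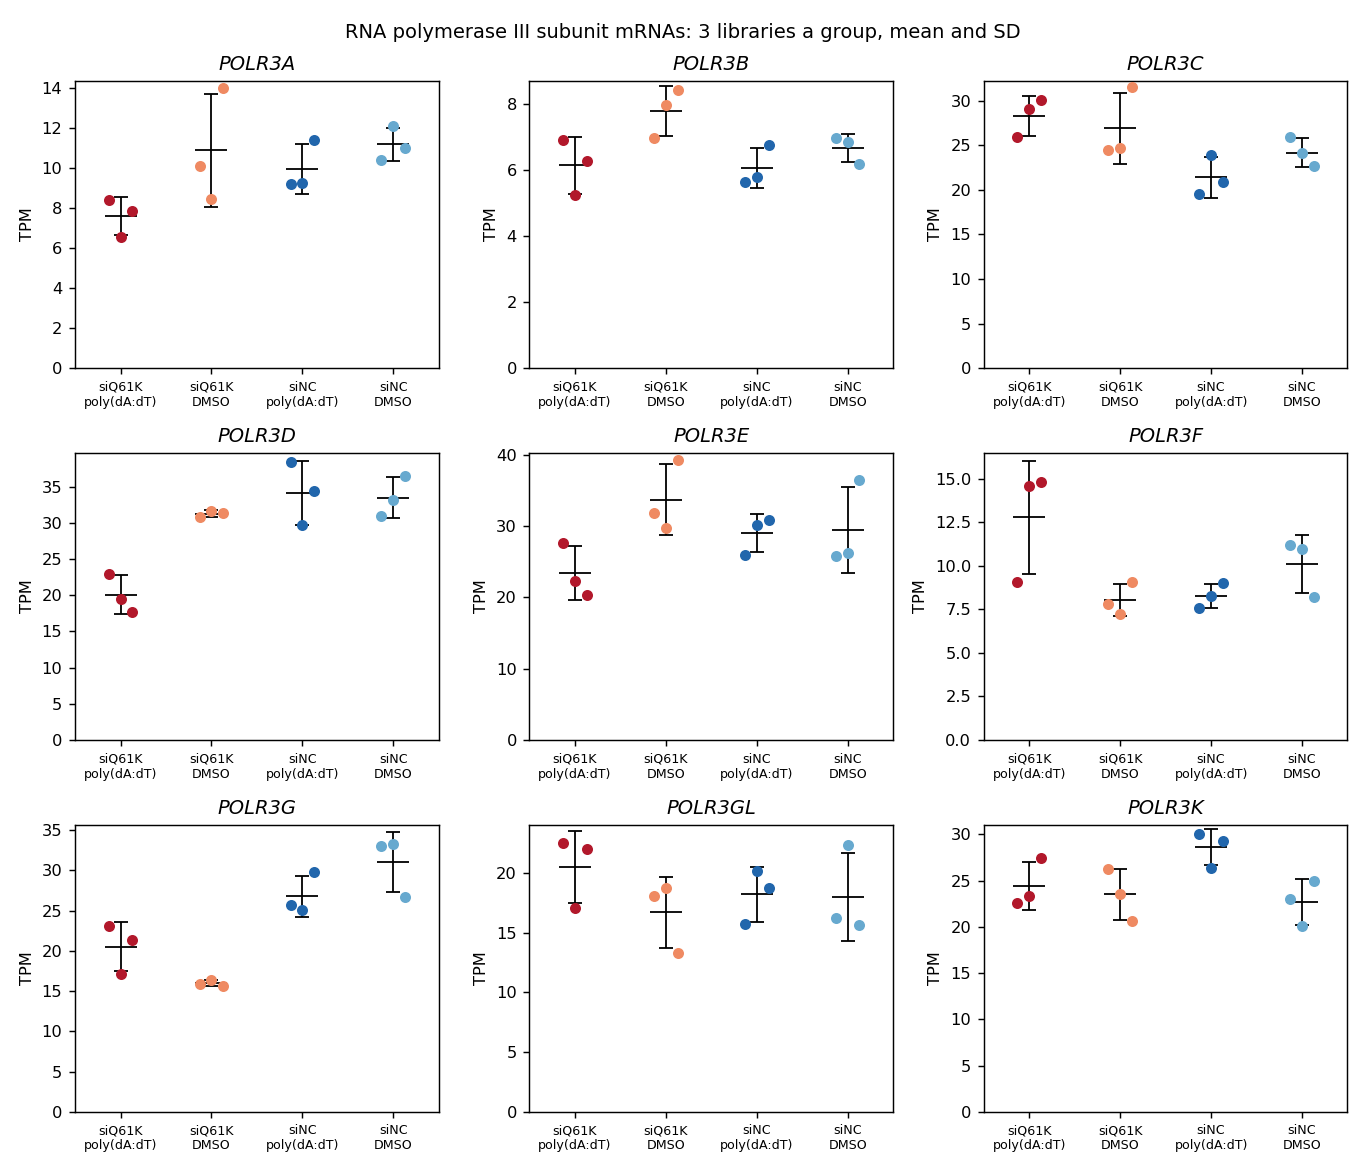
TPM of each RNA polymerase III subunit mRNA (y axis, from 0) in the 4 groups (x axis), with 1 point per library and the mean and SD of 3 libraries. POLR3G lay at 15.6 to 23.1 TPM in the siQ61K libraries and at 25.1 to 33.3 TPM in the siNC libraries, and POLR3D was lowest in siQ61K cells with poly(dA:dT), at 17.7 to 23.0 TPM.

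Before the members are compared, 1 property of the libraries bears on all of them. Values moved with the GC content of the genes, and differently in each library. Spearman's rho between GC content and a gene's deviation from its mean was -0.437 to 0.09 in siQ61K cells with poly(dA:dT), 0.292 to 0.517 in siQ61K cells with DMSO, -0.128 to 0.275 in siNC cells with poly(dA:dT) and -0.49 to -0.031 in siNC cells with DMSO. Most members lay near the middle of the GC range, from POLR3B (44.0% GC in the longest transcript) to POLR3D (49.7%). POLR3F had 41.7% GC. POLR3E had 57.9% GC, the 80.4th percentile of the tested genes, and POLR3G had 34.3%, the 1.26th percentile. For the members, the differences between siQ61K and siNC are therefore given as deposited and after correcting each library for its smooth trend with GC content and transcript length, and counts of calls are given both ways. POLR3G lies at the edge of the range where the smooth curve was fitted.

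**Figure D2:**
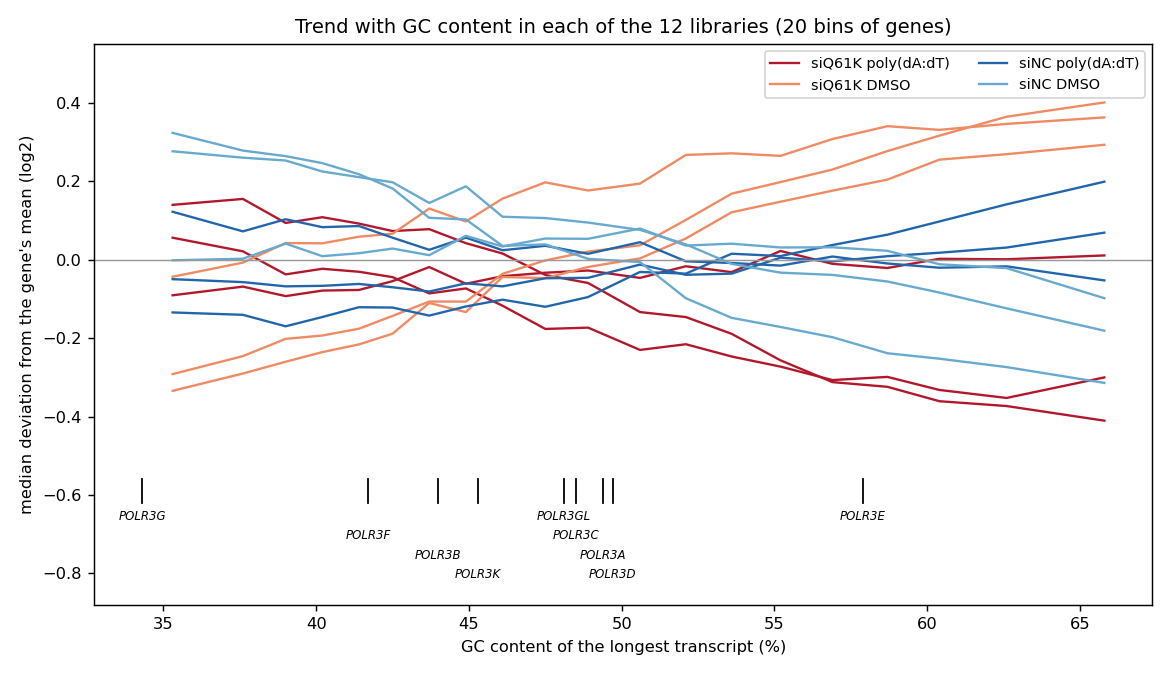
Median deviation of genes from their own mean over the 12 libraries (y axis, log2 of TPM + 1) in 20 bins of GC content of the longest transcript (x axis, percent), with 1 line per library coloured by group and ticks at the GC content of the members. The siQ61K DMSO libraries rise with GC content, the siNC DMSO libraries fall or are flat, and POLR3G sits at the low end of the axis.

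The first comparison asks what siQ61K did to the subunit mRNAs in cells without poly(dA:dT). Of the 9 members, 1 was called, POLR3G, which fell. A call here is an adjusted p under 0.05 from limma over all tested genes (Benjamini-Hochberg). Over all tested genes 31.5% were called, 16.6% higher and 14.8% lower. Whether 1 of only 9 members differs from that share was not tested. After the GC and length correction POLR3G was again the only member called, against 27.6% of all genes. The median log2 fold change was -0.06 over the members and 0.02 over all genes.

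POLR3G and POLR3GL are paralogs, and an RNA polymerase III enzyme holds either of them. POLR3G is known for its expression in stem cells and tumour cells, whereas POLR3GL is expressed broadly. With DMSO, POLR3G stood at 15.9, 16.4 and 15.6 TPM in siQ61K cells, against 33.0, 33.3 and 26.7 TPM in siNC cells. Every siQ61K library was below every siNC library. The log2 fold change was -0.91 (SE 0.14, 95% interval -1.21 to -0.61, adjusted p = 0.000456), and the exact two-sided permutation test gave p = 0.1, the smallest that 3 libraries against 3 allow. POLR3G stayed called without each library in turn (-1.01 to -0.85) and under the 10 other settings tried (-0.95 to -0.48). The value nearest to 0 came from the GC and length correction, at -0.48 (SE 0.13, adjusted p = 0.0200). The 715 genes of lowest GC content, 5% of those with a known GC content, had a median log2 fold change of -0.40 in this comparison before the correction and 0.02 after it. On the corrected log2 scale POLR3G was at 4.37, 4.47 and 4.12 in siQ61K cells, against 4.75, 4.81 and 4.82 in siNC cells, and the groups still did not overlap.

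With poly(dA:dT), POLR3G stood at 23.1, 17.1 and 21.3 TPM in siQ61K cells, against 25.7, 25.1 and 29.8 TPM in siNC cells. The groups did not overlap, but the log2 fold change of -0.38 (SE 0.14, 95% interval -0.68 to -0.08) was not called (adjusted p = 0.0688). After the correction it was -0.47 (SE 0.13, adjusted p = 0.0214) and called, with 4.66, 4.11 and 4.30 on the corrected log2 scale in siQ61K cells, against 4.88, 4.75 and 4.84 in siNC cells. Without replicate 1 of siQ61K with poly(dA:dT), POLR3G was called as deposited too (-0.46, adjusted p = 0.0362). The corrected differences with and without poly(dA:dT) were thus alike in size, and their difference, the interaction, was 0.01 (SE 0.19, adjusted p = 0.988). As deposited, the interaction was 0.53 (SE 0.20, adjusted p = 0.0780), a value in the direction of the median of 0.49 over the 715 genes of lowest GC content. Under median-of-ratios scaling it was called, at 0.62 (adjusted p = 0.0334), under quantile normalization at 0.64 (adjusted p = 0.0330) and without replicate 3 of siNC with DMSO at 0.63 (adjusted p = 0.0400).

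POLR3GL was not called in any comparison. It stood at 22.5, 17.1 and 22 TPM in siQ61K cells with poly(dA:dT), 18.1, 18.7 and 13.3 TPM in siQ61K cells with DMSO, 15.7, 20.2 and 18.7 TPM in siNC cells with poly(dA:dT), and 16.2, 22.3 and 15.6 TPM in siNC cells with DMSO. All 4 groups overlapped. The fold change of siQ61K over siNC was -0.10 (SE 0.18, 95% interval -0.49 to 0.29, adjusted p = 0.703) with DMSO and 0.16 (SE 0.18, 95% interval -0.23 to 0.55, adjusted p = 0.561) with poly(dA:dT), both on the log2 scale. After the correction these values were -0.03 with DMSO (adjusted p = 0.901) and 0.15 with poly(dA:dT) (adjusted p = 0.545). The intervals do not exclude moderate changes of POLR3GL in either direction.

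As a share of the summed TPM of the paralogs, POLR3G made up 50 ± 0.709% in siQ61K cells with poly(dA:dT), against 59.6 ± 3.70% in siNC cells with poly(dA:dT) (SD, n = 3 each). With DMSO the share was 49.1 ± 4.14% in siQ61K cells and 63.4 ± 3.55% in siNC cells. The 6 siQ61K libraries lay at 46.7% to 53.9% and the 6 siNC libraries at 55.3% to 67%, with no overlap. The mean difference was -9.63 percentage points with poly(dA:dT) and -14.2 percentage points with DMSO. Exact two-sided permutation tests of the share gave p = 0.1 for each, the smallest that 3 libraries against 3 allow. The summed TPM was 41.0 ± 6.04 in siQ61K cells with poly(dA:dT), against 45.1 ± 3.56 in siNC cells with poly(dA:dT), and 32.7 ± 3.30 in siQ61K cells with DMSO, against 49.1 ± 6.67 in siNC cells with DMSO. These shares are of deposited values, and the paralogs differ in GC content (34.3% for POLR3G, 48.1% for POLR3GL).

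**Figure D3:**
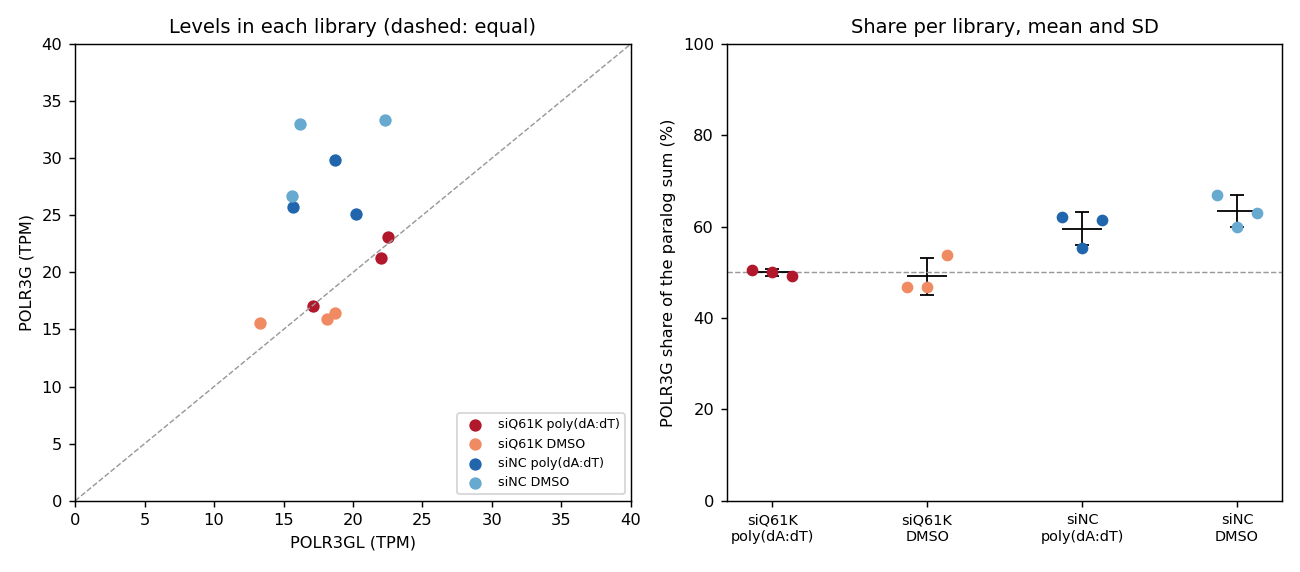
Left, TPM of POLR3G (y axis) against POLR3GL (x axis) in the 12 libraries, with a dashed line where both are equal. Right, POLR3G as a percent of the sum of both (y axis) by group (x axis), with 1 point per library and the mean and SD of 3; siQ61K libraries lie between 46.7% and 53.9%, siNC libraries between 55.3% and 67%.

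Over the 12 libraries, the genes of most alike pattern to POLR3G among 10085 with a mean of at least 5 TPM were TNFAIP8 (Pearson's r = 0.981), DDX50 (0.974) and ITPR1 (0.972). For POLR3GL they were SERF1B (0.826), SLC25A33 (0.767) and ALG8 (0.756). These are the highest of many correlations of log2(TPM + 1). All points come from the same libraries and share their GC trends. The GC content was 40.6% for TNFAIP8, 42.6% for DDX50 and 47.1% for ITPR1, against 34.3% for POLR3G.

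The other members of the initiation subcomplex, POLR3C and POLR3F, were not called with DMSO. POLR3C stood at 24.5, 24.7 and 31.6 TPM in siQ61K cells with DMSO, against 25.9, 24.1 and 22.7 TPM in siNC cells with DMSO, and the groups overlapped. For POLR3F the values were 7.82, 7.23 and 9.07 TPM in siQ61K cells with DMSO, against 11.2, 11.0 and 8.21 TPM in siNC cells with DMSO, again with overlap. The log2 fold changes were 0.14 (SE 0.13, adjusted p = 0.460) for POLR3C and -0.29 (SE 0.19, adjusted p = 0.271) for POLR3F. After the correction POLR3C was at 0.18 (adjusted p = 0.264) and POLR3F at -0.045 (adjusted p = 0.844).

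With poly(dA:dT), siQ61K cells again had 1 of 9 members called, this time POLR3D, which fell. Over all tested genes 21.4% were called, 8.71% higher and 12.6% lower. Of the called genes 40.8% were higher as deposited, and 51.2% under quantile normalization. After the GC and length correction 4 of 9 members were called, POLR3C and POLR3F as higher and POLR3D and POLR3G as lower, against 27.1% of all genes. The median log2 fold change was -0.22 over the members and -0.07 over all genes, and -0.05 over the members and 0.01 over all genes after the correction.

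POLR3D, the partner of POLR3E, stood at 23.0, 19.5 and 17.7 TPM in siQ61K cells with poly(dA:dT), against 38.5, 29.7 and 34.4 TPM in siNC cells with poly(dA:dT). All 3 siQ61K libraries lay below all 3 siNC libraries. The log2 fold change was -0.74 (SE 0.13, 95% interval -1.02 to -0.46, adjusted p = 0.00171), with an exact permutation p of 0.1, the smallest possible. It was called without each library in turn (-0.84 to -0.65) and under the 10 other settings, the GC and length correction included (-0.63, SE 0.13, adjusted p = 0.00369). With DMSO the values of POLR3D were 30.8, 31.6 and 31.4 TPM in siQ61K cells, against 30.9, 33.2 and 36.5 TPM in siNC cells. There the groups overlapped, and the log2 fold change was -0.09 (SE 0.13, 95% interval -0.38 to 0.19, adjusted p = 0.623), or -0.175 (adjusted p = 0.345) after the correction. AC105206.2, on the opposite strand, overlaps exons of POLR3D in GENCODE 29 and was listed at 0 to 2.61 TPM in the 12 libraries, far below POLR3D.

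POLR3C and POLR3F had fold changes above 0 in cells with poly(dA:dT). POLR3C stood at 25.9, 29.1 and 30.1 TPM in siQ61K cells, against 19.5, 23.9 and 20.9 TPM in siNC cells, with no overlap. Its log2 fold change of 0.39 (SE 0.13, 95% interval 0.10 to 0.68) was not called as deposited (adjusted p = 0.0535) and was called after the correction (0.39, SE 0.11, adjusted p = 0.0203). POLR3F stood at 9.06, 14.6 and 14.8 TPM in siQ61K cells, against 7.58, 8.27 and 8.99 TPM in siNC cells. The lowest siQ61K library was just above the highest siNC library. Its log2 fold change was 0.55 (SE 0.19, 95% interval 0.13 to 0.96, adjusted p = 0.0593), and 0.48 (SE 0.14, adjusted p = 0.0238) after the correction. Both were also called under median-of-ratios scaling and quantile normalization, and without replicate 1 of the siQ61K poly(dA:dT) group, where POLR3F was at 0.76 (adjusted p = 0.00732) and POLR3C at 0.45 (adjusted p = 0.0382). POLR3C was also called without replicate 3 of siQ61K with DMSO (0.39, adjusted p = 0.0312).

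The catalytic subunits were not called in this or in any other comparison as deposited or after the correction. POLR3A stood at 8.43, 6.55 and 7.88 TPM in siQ61K cells with poly(dA:dT), against 9.20, 9.28 and 11.4 TPM in siNC cells with poly(dA:dT). The groups did not overlap, and the log2 fold change was -0.35 (SE 0.18, 95% interval -0.74 to 0.04, adjusted p = 0.188), or -0.225 (adjusted p = 0.117) after the correction. With DMSO POLR3A was at 10.1, 8.48 and 14.0 TPM in siQ61K cells, against 10.4, 12.1 and 11.0 TPM in siNC cells, and the groups overlapped (-0.06 on the log2 scale, SE 0.18, adjusted p = 0.818, and -0.15 after the correction, adjusted p = 0.293). POLR3B stood at 6.91, 5.23 and 6.26 TPM in siQ61K cells with poly(dA:dT), against 5.64, 5.78 and 6.75 TPM in siNC cells with poly(dA:dT), that is 0.01 on the log2 scale (SE 0.16, 95% interval -0.32 to 0.35), and also 0.01 (adjusted p = 0.947) after the correction. With DMSO it was at 6.96, 7.94 and 8.42 TPM in siQ61K cells, against 6.96, 6.83 and 6.17 TPM in siNC cells (0.20 on the log2 scale, SE 0.16, adjusted p = 0.364, and 0.32 after the correction, adjusted p = 0.0543).

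POLR3E and POLR3K were not called between siQ61K and siNC either. POLR3E stood at 27.6, 22.3 and 20.3 TPM in siQ61K cells with poly(dA:dT), against 26, 30.2 and 30.9 TPM in siNC cells with poly(dA:dT). With DMSO it was at 31.9, 29.8 and 39.3 TPM in siQ61K cells, against 25.8, 26.2 and 36.5 TPM in siNC cells. The groups overlapped in both, and the log2 fold changes were -0.31 in cells with poly(dA:dT) (SE 0.16, adjusted p = 0.207) and 0.19 in cells with DMSO (SE 0.16, adjusted p = 0.405). After the correction POLR3E was at -0.05 (SE 0.11, adjusted p = 0.796) with poly(dA:dT), and with DMSO it turned to the other direction, at -0.17 (SE 0.11, adjusted p = 0.305), still not called. POLR3K stood at 22.6, 23.3 and 27.4 TPM in siQ61K cells with poly(dA:dT), against 30, 26.4 and 29.3 TPM in siNC cells with poly(dA:dT) (-0.22 on the log2 scale, SE 0.13, adjusted p = 0.262, and -0.29 after the correction, adjusted p = 0.0887). With DMSO POLR3K was at 26.2, 23.6 and 20.6 TPM in siQ61K cells, against 23.0, 20.1 and 25 TPM in siNC cells (0.05 on the log2 scale, SE 0.13, adjusted p = 0.822, and 0.22 after the correction, adjusted p = 0.202).

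**Figure D4:**
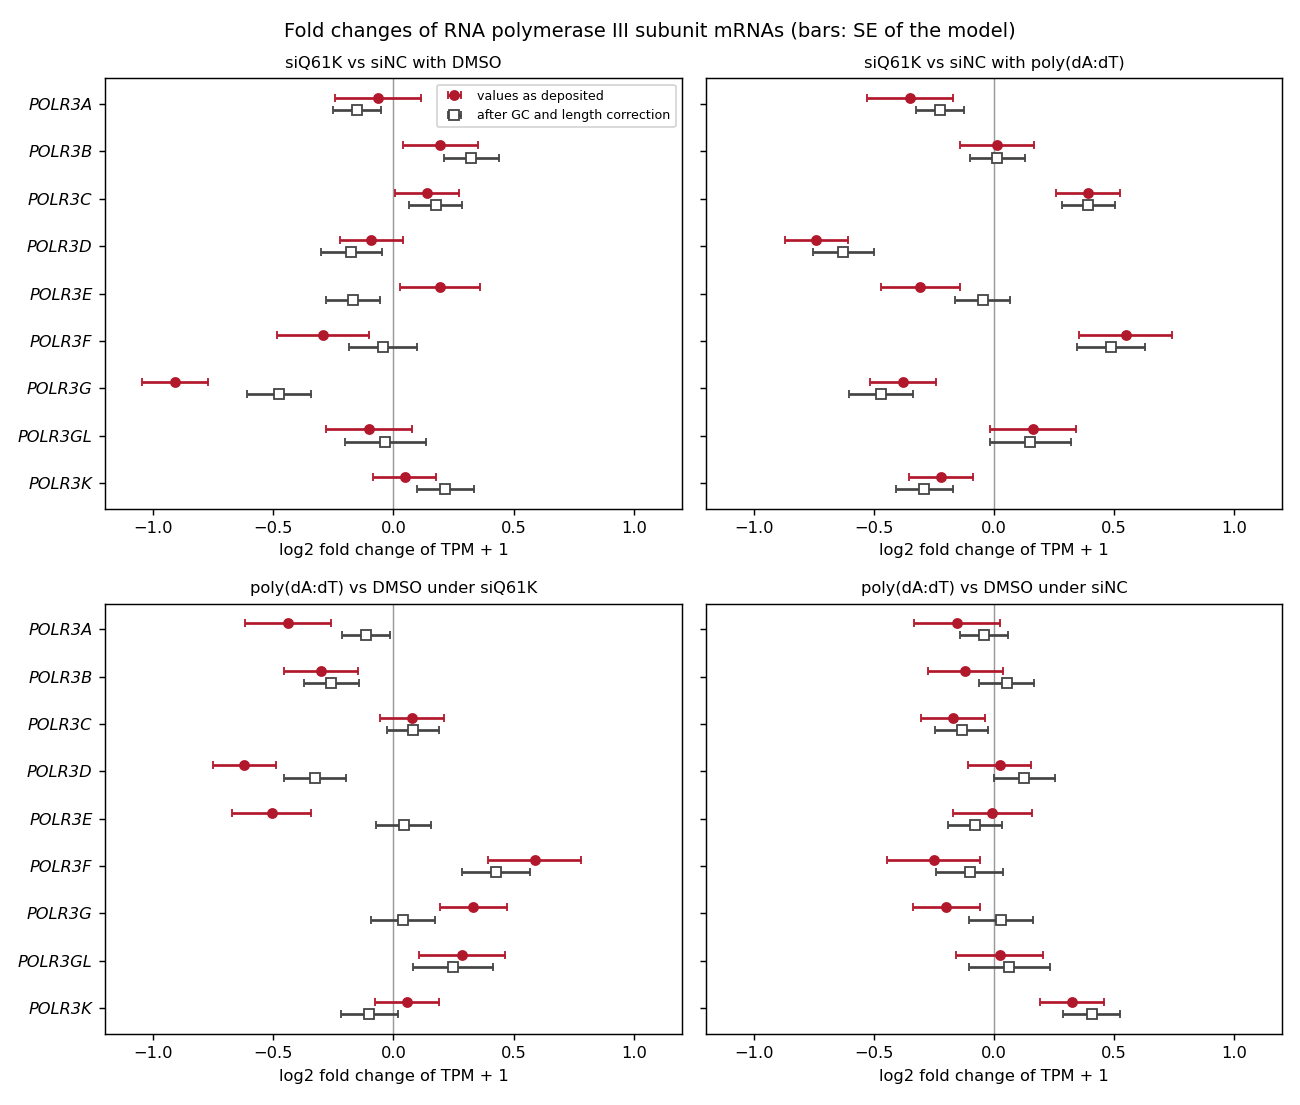
Log2 fold change of TPM + 1 (x axis) of each member in 4 comparisons, as deposited (filled circles) and after the GC and length correction (open squares), with bars of 1 SE from limma. POLR3G stands apart with DMSO at -0.91 and moves to -0.48 after the correction, POLR3D stands apart with poly(dA:dT) at -0.74 and -0.63, and POLR3E under siQ61K moves from -0.51 to 0.04.

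The response to poly(dA:dT) was measured within each siRNA. Under siNC none of the 9 members was called by limma. An unadjusted p under 0.05 was found for 1 of the 9, and for 1640 of the 14722 genes tested. Over all tested genes only 0.122% were called (0.0747% higher and 0.0475% lower), or 0.203% after the correction, so a count of 0 is near the background. The stimulus was seen in the interferon-stimulated gene IFIT1, at 43.1, 31.4 and 48.5 TPM in siNC cells with poly(dA:dT), against 6.40, 7.15 and 5.98 TPM in siNC cells with DMSO. The member with the unadjusted p under 0.05 was POLR3K, whose values in siNC cells, given above, did not overlap between poly(dA:dT) and DMSO (log2 fold change 0.32, SE 0.13, 95% interval 0.04 to 0.61, adjusted p = 0.411). After the correction it was at 0.41 (adjusted p = 0.324). The fold changes of the other 8 members lay between -0.25 (POLR3F) and 0.02 (POLR3D), and after the correction between -0.13 (POLR3C) and 0.13 (POLR3D). Their 95% intervals reached at most -0.67 (POLR3F) on the low side and 0.41 (POLR3GL) on the high side, so moderate changes were not excluded.

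Under siQ61K, 3 of the 9 members were called after poly(dA:dT) as deposited, POLR3F as higher and POLR3D and POLR3E as lower. The share over all tested genes was 25.2%, 6.92% higher and 18.3% lower. Of the called genes 27.5% were higher as deposited, and 53.4% under median-of-ratios scaling. After the GC and length correction none of the 9 was called by limma, against 8.74% of all genes. As deposited, an unadjusted p under 0.05 was found for 5 of the 9, and for 5610 of the 14722 genes tested. The median log2 fold change over all genes was -0.14 as deposited, and it moved to 0.00 with median-of-ratios scaling. In this comparison fold changes also fell with GC content across genes (Spearman's rho -0.572).

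POLR3D was lower with poly(dA:dT) than with DMSO in every siQ61K library, with -0.62 on the log2 scale (SE 0.13, adjusted p = 0.00702). After the correction the value was -0.33 (SE 0.13, adjusted p = 0.126) and not called. POLR3E fell as well, to 20.3 to 27.6 TPM with poly(dA:dT), against 29.8 to 39.3 TPM with DMSO, at -0.51 (SE 0.16, adjusted p = 0.0401). After the correction POLR3E was at 0.04 (SE 0.11, adjusted p = 0.854), in the other direction, and under median-of-ratios scaling it was at -0.34 (adjusted p = 0.111). POLR3F was higher, at 0.59 (SE 0.19, adjusted p = 0.0408), although its groups overlapped, and at 0.43 (SE 0.14, adjusted p = 0.0779) after the correction. The call of POLR3E was lost in 5 of 12 fits that left out 1 library: replicates 1 and 3 of siQ61K with DMSO, replicates 2 and 3 of siQ61K with poly(dA:dT) and replicate 2 of siNC with poly(dA:dT) (adjusted p up to 0.145). That of POLR3F was lost in 7 of 12, without any siQ61K DMSO library, without replicates 2 and 3 of siQ61K with poly(dA:dT), and without replicate 2 of either siNC group (adjusted p up to 0.152). The POLR3D call was kept in all 12 (-0.72 to -0.54). POLR3A, at -0.44 (SE 0.18, adjusted p = 0.0894), was called without replicate 2 of siQ61K with DMSO (-0.59, adjusted p = 0.0427), and was at -0.11 (adjusted p = 0.505) after the correction. POLR3G, with 0.33 (SE 0.14, adjusted p = 0.0973), was not called as deposited and was called under median-of-ratios scaling (0.49, adjusted p = 0.0174), while after the correction it was at 0.04 (adjusted p = 0.890).

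The interaction is the log2 response to poly(dA:dT) under siQ61K minus that under siNC, and it shares its libraries with the comparisons above. As deposited, 2 of the 9 members were called, POLR3F as higher and POLR3D as lower, against 18.1% of all tested genes (6% higher and 12.1% lower). Of the called genes 33.2% were higher as deposited, and 47.8% under median-of-ratios scaling. After the correction none was called by limma, against 2.08% of all genes. An unadjusted p under 0.05 was found for 3 of the 9 members as deposited, and for 4947 of the 14722 genes tested. POLR3D had an interaction of -0.65 (SE 0.18, 95% interval -1.05 to -0.24, adjusted p = 0.0319), and -0.45 (SE 0.18, adjusted p = 0.194) after the correction. POLR3F had 0.84 (SE 0.27, 95% interval 0.25 to 1.43, adjusted p = 0.0487), and 0.53 (SE 0.20, adjusted p = 0.170) after the correction. The POLR3D call was lost in 9 of the 12 fits that left out 1 library (adjusted p up to 0.0853), and was kept without replicate 3 of siNC with DMSO, replicate 2 of siNC with poly(dA:dT) or replicate 1 of siQ61K with poly(dA:dT). The POLR3F call was lost in 10 of 12 (adjusted p up to 0.121), and was kept without replicate 3 of siNC with DMSO or replicate 1 of siQ61K with poly(dA:dT). Of the 9 other settings that apply to the interaction, the POLR3D call was kept in 4 and the POLR3F call in 5. A difference between the effects of siQ61K with and without poly(dA:dT) was thus called for POLR3D and POLR3F as deposited and for no member after the correction.

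CRCP, a subunit of the stalk, rose in siQ61K cells with DMSO. It stood at 17.2, 15.4 and 15.7 TPM in siQ61K cells with poly(dA:dT), against 11.3, 13.2 and 13 TPM in siNC cells with poly(dA:dT). With DMSO it was at 16.2, 15.5 and 18 TPM in siQ61K cells, against 12.8, 10.4 and 13.8 TPM in siNC cells. All siQ61K libraries were above all siNC libraries. The log2 fold change of CRCP was 0.40 in cells with DMSO (SE 0.14, adjusted p = 0.0401), a call lost in 7 of 12 fits that left out 1 library (adjusted p 0.0292 to 0.170), and 0.34 in cells with poly(dA:dT) (SE 0.14, adjusted p = 0.0961), which was not called. After the correction CRCP was called in both, at 0.37 (adjusted p = 0.0292) with DMSO and 0.38 (adjusted p = 0.0257) with poly(dA:dT).

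Subunits shared with the other RNA polymerases moved in both directions. With DMSO, 2 of 7 rose and 2 fell in siQ61K cells, against 31.5% of all tested genes called in either direction, or 1 and 1 after the correction, against 27.6%. POLR2E rose by 1.14 on the log2 scale (SE 0.23, adjusted p = 0.00288), with 369, 357 and 336 TPM in siQ61K cells, against 122, 162 and 205 TPM in siNC cells, and POLR2H fell by 0.75 (SE 0.09, adjusted p = 0.000116). Both calls held after the correction (0.77 for POLR2E, -1.10 for POLR2H). Between siQ61K and siNC with poly(dA:dT), POLR1D was higher (0.61, adjusted p = 0.0104, and 0.69 after the correction). POLR2H was lower as deposited (-0.30, adjusted p = 0.0349) but was not called after the correction (-0.095, adjusted p = 0.616), and the other 5 were not called. Over all tested genes 21.4% were called there, or 27.1% after the correction. Of 7 subunits particular to RNA polymerase II, 1 was lower in siQ61K than in siNC cells with DMSO (POLR2C, -0.45), against 31.5% of all genes called. With poly(dA:dT) 1 was higher and 2 were lower, against 21.4%, with POLR2C again lower (-0.86, adjusted p = 0.000613). Of the listed subunits of RNA polymerase I, 6 were tested. With DMSO 1 of them, POLR1A, was called (0.67, adjusted p = 0.0305) against 31.5% of all genes, and with poly(dA:dT) none was, against 21.4%. There 2 of the 6 had an unadjusted p under 0.05, as did 5116 of the 14722 genes tested.

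Initiation factors of RNA polymerase III also moved both ways in siQ61K cells with DMSO. Of 18 tested, 4 rose and 6 fell, against 16.6% higher and 14.8% lower over all tested genes. After the correction 2 rose and 2 fell, against 27.6% of all genes called in either direction. SNAPC4, the largest subunit of the complex that binds snRNA gene promoters, rose by 1.14 (SE 0.19, adjusted p = 0.000771), with 13.3, 11.5 and 15.3 TPM in siQ61K cells, against 4.81, 5.63 and 6.09 TPM in siNC cells. It was at 0.63 (adjusted p = 0.00206) after the correction, while SNAPC3 of the same complex fell (-0.65, adjusted p = 0.00510, and -0.42 after the correction). BRF1, a subunit of the factor TFIIIB, rose by 0.76 (SE 0.18, adjusted p = 0.00732), but after the correction was at 0.22 (adjusted p = 0.246). With poly(dA:dT) only GTF3C6, a subunit of TFIIIC, was called, as higher in siQ61K than in siNC cells (0.52, SE 0.14, adjusted p = 0.0164). The other 17 were not called, and after the correction 3 were higher and none was lower. Over all genes 21.4% were called there as deposited and 27.1% after the correction. The medians over the 18 factors were -0.16 with DMSO and 0.03 with poly(dA:dT), against 0.02 and -0.07 over all genes.

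Among 10 regulators and partners, 3 were higher and 3 lower in siQ61K than in siNC cells with DMSO, and 6 were higher and 1 lower with poly(dA:dT). Over all tested genes 16.6% were higher and 14.8% lower with DMSO, and 8.71% higher and 12.6% lower with poly(dA:dT). After the correction the counts were 2 and 2 with DMSO, against 27.6% of all genes called in either direction, and 6 and 2 with poly(dA:dT), against 27.1%. MYC, an activator of RNA polymerase III transcription, was higher in siQ61K than in siNC cells under both treatments. With poly(dA:dT) it stood at 49.8, 40.4 and 44.6 TPM in siQ61K cells, against 33.4, 32.9 and 31.5 TPM in siNC cells (0.45 on the log2 scale, SE 0.12, adjusted p = 0.0157). With DMSO MYC was at 54.7, 46.4 and 56.2 TPM in siQ61K cells, against 27.1, 30.7 and 28.6 TPM in siNC cells (0.84, SE 0.12, adjusted p = 0.000254). MAF1, the repressor of RNA polymerase III, was lower in siQ61K than in siNC cells with poly(dA:dT). It stood at 91.4, 55.4 and 59.8 TPM in siQ61K cells, against 120, 109 and 94.1 TPM in siNC cells (-0.66, SE 0.17, adjusted p = 0.0143, and -0.44 after the correction, adjusted p = 0.00875). With DMSO MAF1 was at 116, 115 and 101 TPM in siQ61K cells, against 71.1, 81 and 90.5 TPM in siNC cells. That difference of 0.45 (SE 0.17, adjusted p = 0.0588) was in the other direction and not called, and it was 0.04 after the correction (adjusted p = 0.823). RIG-I mRNA, from DDX58, stood at 54.6, 63.5 and 58.8 TPM in siQ61K cells with poly(dA:dT), against 19.3, 17.2 and 19.5 TPM in siNC cells with poly(dA:dT). DHX58 (1.40, adjusted p = 0.0103) and IFIH1 (1.29, adjusted p = 0.0122), which encode related receptors, were also higher in siQ61K than in siNC cells with poly(dA:dT). DHX58 stood at 21.6, 7.76 and 6.79 TPM there, against 2.73, 4.76 and 2.94 TPM. IFIH1 was near the floor, at 3.45, 2.76 and 1.01 TPM, against 0.319, 0 and 0.728 TPM. It passed the filter on low values only through siQ61K libraries, which limits what its call can show. With DMSO DDX58 was at 8.02, 7.98 and 8.48 TPM in siQ61K cells, against 13.9, 14.5 and 11.3 TPM in siNC cells. The log2 fold change of DDX58 was 1.61 in cells with poly(dA:dT) (SE 0.13, adjusted p = 3.07e-06) and -0.63 in cells with DMSO (SE 0.13, adjusted p = 0.00261).

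**Figure D5:**
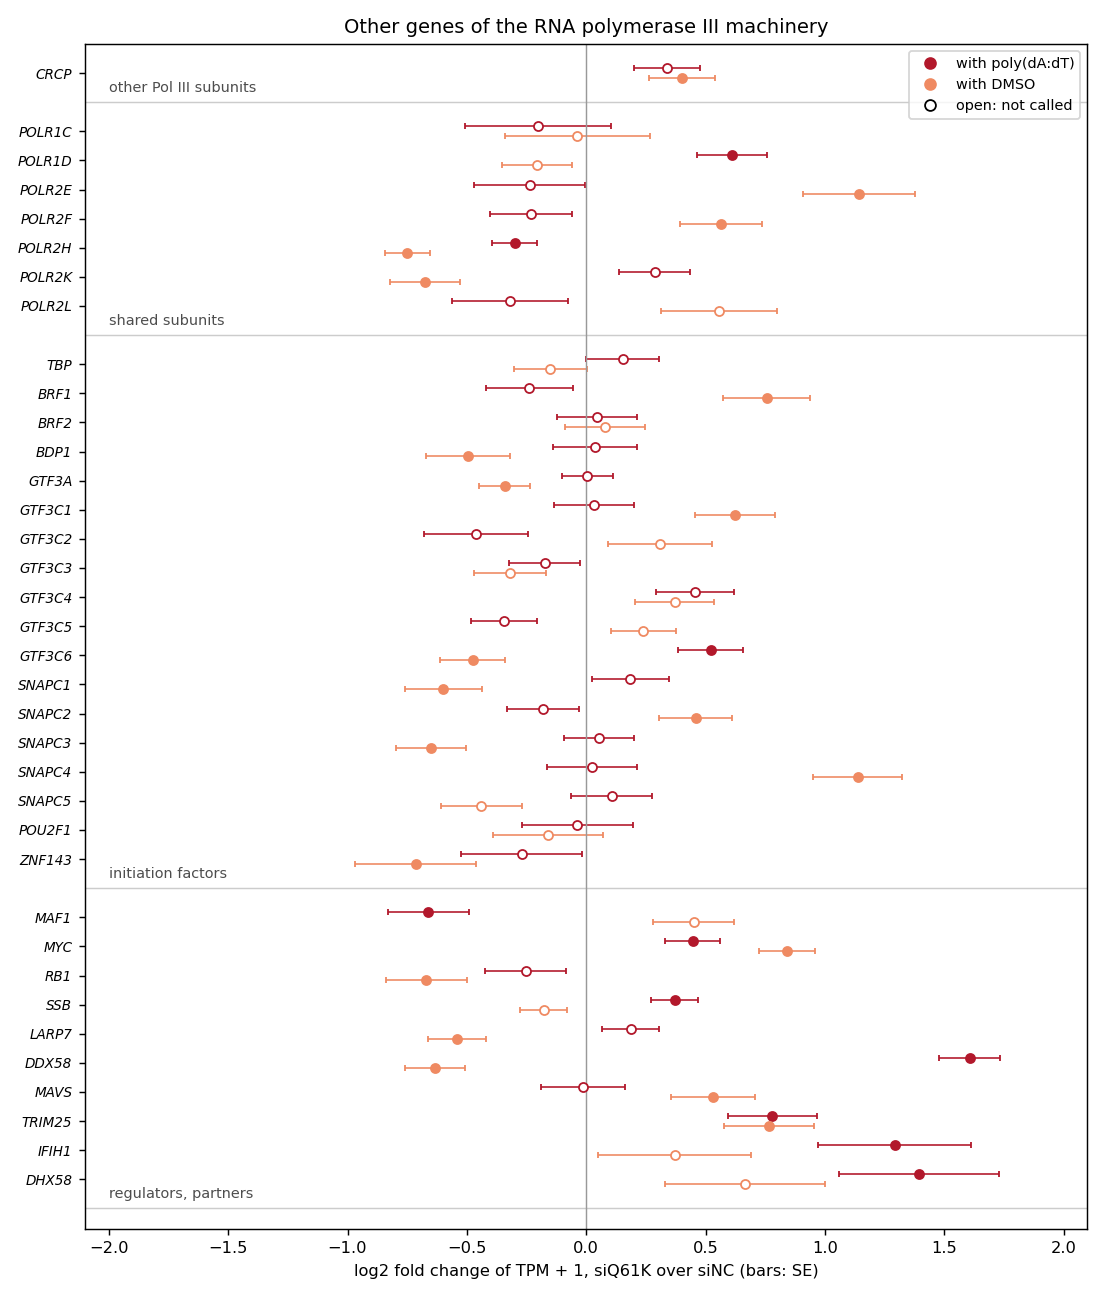
Log2 fold change of TPM + 1, siQ61K over siNC (x axis), of other genes of the RNA polymerase III machinery with poly(dA:dT) and with DMSO, with bars of 1 SE from limma and filled points for called genes. CRCP lies to the right of 0 in both, at 0.34 and 0.40, while initiation factors lie on both sides of 0 with DMSO, from -0.71 (ZNF143, not called after the correction) to 1.14 (SNAPC4).

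Of the transcripts made by RNA polymerase III itself, 3 of 15 listed were tested, RN7SK, RN7SL2 and RMRP. The others were at 0 TPM in every library or had no entry with a unique symbol. None of them was thus a low value removed by the filter. The labels do not say how RNA was selected for the libraries. RN7SK stood at 20, 67.2 and 59.5 TPM in siQ61K cells with poly(dA:dT), 20.3, 24.2 and 43.5 TPM in siQ61K cells with DMSO, 26.4, 19.6 and 93.3 TPM in siNC cells with poly(dA:dT), and 107, 36.3 and 171 TPM in siNC cells with DMSO. Replicates of a group thus differed by several fold. None of the 3 was called by limma in any comparison. In each, at most 1 had an unadjusted p under 0.05, as did 1640 to 6195 of the 14722 genes tested. No statement on the output of the enzyme can be drawn at that spread.

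Exons of 6 members overlap those of another gene in GENCODE 29, 5 of them on the opposite strand, and the labels do not say whether the strand was used in quantification. MBLAC2, which overlaps POLR3G, was at 2.65 to 4.90 TPM, and DZANK1, which overlaps POLR3F, at 0.457 to 1.72 TPM. Neither was called in any comparison. SNRNP25, which overlaps POLR3K, was at 17.3 to 24.8 TPM, near the level of POLR3K. Between siQ61K and siNC with DMSO, SNRNP25 was called as deposited (0.35, SE 0.11, adjusted p = 0.0291) and not after the correction (-0.01, adjusted p = 0.964). In the response to poly(dA:dT) under siNC it moved in the direction of POLR3K, without a call (0.285, SE 0.11, adjusted p = 0.395). There SNRNP25 was at 21.7, 23.2 and 22.6 TPM with poly(dA:dT), against 17.3, 17.9 and 19.8 TPM with DMSO. After the correction it was at 0.10 (adjusted p = 0.878). Whether reads of SNRNP25 entered the values of POLR3K was not tested.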

How the data were processed

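HT1080 cells were profiled by RNA-seq in 12 libraries, 4 groups of 3. The authors deposited 1 table with TPM for each gene symbol. Libraries were made from total RNA with a NEBNext Ultra kit, per the labels' protocols. Salmon 0.8.0 and hg19 come from the submitters' processing notes. The 984 entries that shared 58 symbols were left out, and no counting interval is given because TPM keeps no depth.

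The scale was log2(TPM + 1), which understates changes of low genes. For the 14722 genes at or above 1 TPM in 3 or more libraries, a linear model of the 4 groups was fitted with limma 3.58.1 in R 4.3.3, using its variance trend. P-values were adjusted by Benjamini-Hochberg over these genes, with 0.05 as the threshold; SE and intervals come from the model. Exact two-sided permutation tests were run for single values. GC content and length were those of the longest GENCODE 29 transcript, matched by symbol for 14299 genes (97.1%), with lowess curves of span 0.3. The code was tested on simulated data with known changes. The other settings tried were pseudocounts of 0.1 and 5, no filter or a mean TPM of 5 or more, median-of-ratios scaling, quantile normalization, the correction for GC content and length, a fit with no variance trend or to only the groups compared, the replicate number as a block, and each library left out in turn.

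The members, the other gene lists and the tests were chosen with earlier results of these data known. All members are named, and from each list its counts and up to 3 called genes in each direction with the largest fold change in a comparison, whose values in another comparison may stand beside them. NRAS and IFIT1 serve as checks. Results for some listed genes are not reported here. For POLR3G and POLR3GL the 3 genes of highest correlation are named. Genes with overlapping exons and the share of POLR3G among the paralogs were added after values were seen.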

Additional observations from a re-analysis of the deposited data

Results flagged for a closer look

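The genes given here had an interaction called by limma as deposited: their log2 response to poly(dA:dT) under siQ61K minus that under siNC, with p adjusted over all tested genes, of which 18.1% were called. Among the subunits of RNA polymerase III these were POLR3D, with -0.65 (adjusted p = 0.0319), and POLR3F, with 0.84 (adjusted p = 0.0487). Among shared subunits they were POLR2E with -1.38 (adjusted p = 0.0177), POLR2F with -0.80 (adjusted p = 0.0398), POLR2H with 0.45 (adjusted p = 0.0338), POLR2K with 0.96 (adjusted p = 0.0129) and POLR1D with 0.82 (adjusted p = 0.0212). POLR1G of RNA polymerase I had -1.59 (adjusted p = 0.0468).

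Initiation factors in this group were SNAPC4 with -1.11 (adjusted p = 0.0177), BRF1 with -0.996 (adjusted p = 0.0220), SNAPC3 with 0.70 (adjusted p = 0.0351), SNAPC1 with 0.78 (adjusted p = 0.0338) and GTF3C6 with 0.997 (adjusted p = 0.0103). Regulators and partners were MAF1 with -1.11 (adjusted p = 0.0128), LARP7, which binds the RN7SK transcript, with 0.73 (adjusted p = 0.0170), SSB, which binds the ends of new RNA polymerase III transcripts, with 0.55 (adjusted p = 0.0209) and DDX58 with 2.24 (adjusted p = 5.99e-05). IFIT1, the check of the stimulus, had 2.11 (adjusted p = 0.000391). After the GC and length correction, DDX58 (1.96), IFIT1 (1.92), POLR2H (1.00) and GTF3C6 (0.81) were still called, POLR1G had no GC value, and the others named here were not called. Interaction values fell with GC content across genes (Spearman's rho -0.656).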

How the results depend on the processing

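Between siQ61K and siNC, POLR3G was lower with DMSO and POLR3D was lower with poly(dA:dT). Both differences kept their calls under all 10 other settings and without each library. POLR3E in the response to poly(dA:dT) under siQ61K was at -0.507 as deposited and at 0.042 with the GC and length correction. Members called between siQ61K and siNC with poly(dA:dT) numbered 1, and 2 with a mean of at least 5 TPM, 3 with median-of-ratios scaling, 3 with quantile normalization and 4 with the correction. Calls over all genes were 3144 and, in the same order, 2876, 3308, 3301 and 3871. Fewer genes were tested with a mean of at least 5 TPM and with the correction. In the response under siQ61K the members called numbered 3, and 2 with no variance trend, 2 with the replicate block, 1 with no filter, 1 with only the groups compared and 0 with the correction. For the interaction the members called numbered 2, and 0 with no filter, 0 with no variance trend, 0 with the correction and 1 with the replicate block. With no variance trend the calls over all genes were 3220 under siQ61K and 1846 for the interaction. Over all genes, no filter gave 2650 calls in place of 4632 for siQ61K with DMSO, 1662 in place of 3144 for siQ61K with poly(dA:dT), 8 in place of 18 for poly(dA:dT) under siNC, 673 in place of 3712 under siQ61K and 111 in place of 2662 for the interaction. The correction gave 29, 1250 and 297 for the last 3, and only the groups compared gave 2207 under siQ61K.

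With 1 library left out, siQ61K with DMSO gave 3040 to 4983 calls (members 1 to 1), the lowest when replicate 1 of the siNC DMSO group was omitted. For siQ61K with poly(dA:dT) there were 2127 to 3770 calls and 1 to 4 members, 4 when replicate 1 of the siQ61K poly(dA:dT) group was omitted and 2 for replicate 3 of the siQ61K DMSO group. Poly(dA:dT) under siNC gave 7 to 36 (members 0 to 0). Omitting replicate 1, 2 or 3 of the siNC DMSO group gave 10, 9 or 9, replicate 1 of siNC with poly(dA:dT) gave 7 and replicate 1 of siQ61K with poly(dA:dT) gave 36. Under siQ61K the range was 1633 to 4622 (members 1 to 3). Replicate 1 or 3 of siQ61K with DMSO gave 2244 or 2162, and replicate 2 or 3 of siQ61K with poly(dA:dT) gave 1646 or 1633, each with 1 member, as did replicate 2 of siNC with poly(dA:dT). The interaction gave 976 to 3877 (members 0 to 3). Omitting replicate 1 or 2 of siNC with DMSO gave 976 or 1554, replicate 1 or 2 of siNC with poly(dA:dT) gave 1272 or 1625, replicate 1 of siQ61K with DMSO gave 1377 and replicate 2 or 3 of siQ61K with poly(dA:dT) gave 1375 or 1041. The cause of these changes was not tested.

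Replicate numbers do not pair the libraries: same-numbered deviations from group means correlated at -0.26 to 0.233, above 0.1 in 3 of 18 pairs. With the number as a replicate block the 5 comparisons, in the order above, had 4436, 2957, 22, 3433 and 2243 calls. Of called genes, 40.8% were higher for siQ61K with poly(dA:dT), 27.5% for the response under siQ61K and 33.2% for the interaction; with median-of-ratios scaling these were 50.1%, 53.4% and 47.8%. Over the named genes, 4079 of 4459 values kept their side of the threshold, 60 gained a call, 319 lost one and 1 called value reversed. Of the 4079, 1442 were called in the same direction in both fits, 2545 were called in neither and had the same sign, and 92, over 25 genes, were called in neither and had the other sign, among them POLR3E with DMSO under the correction (-0.168 in place of 0.193).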
